A study of Mus musculus with 36 samples.

Results

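Dbp, Tef and Hlf, the PAR bZIP transcription factors, and Nfil3, the bZIP repressor that binds the same DNA element, were followed in the livers of lung tumour-bearing and wild-type mice around the day. They were chosen by name, as every probe set whose annotation gives 1 of these 4 symbols. This gave 5 of the 41345 probe sets on the array and 4 of the 22180 genes measured, with 2 probe sets for Tef and 1 each for Dbp, Hlf and Nfil3. Tef was represented by the probe set with the higher mean, and no array gave any of the 5 a value under 16 intensity units.

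TB mice carried KrasLSL-G12D;p53fl/fl, alleles of a lung adenocarcinoma model, and WT mice served as their control. Both genotypes were C57BL/6, and the day held 12 h of light and 12 h of darkness. Whole livers were frozen at Zeitgeber time (ZT, hours after lights on) 0, 4, 8, 12, 16 and 20, and RNA was read on 1-colour arrays, with 3 arrays for each of the 12 groups and 36 in all. The labels state neither how Cre was delivered and which cells it recombined nor the sex and age of the animals. They number the replicates without saying that each came from a mouse of its own, so the spread behind the p-values may be partly technical.

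PAR bZIP proteins bind D boxes as dimers and activate transcription, and NFIL3 binds the same sites and represses it. In the liver clock, BMAL1 with CLOCK or NPAS2 drives Dbp through E boxes, while REV-ERB proteins repress and ROR proteins activate Nfil3 through ROR elements, so that activator and repressor of the D box come at opposite times of day. In mouse liver, PAR bZIP factors are known for their control of xenobiotic and lipid metabolism.

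Promoter sequence is shown for Tef and Nfil3 because these members moved in opposite phase in the arrays. They were also the only members whose windows held any of the motifs searched. RefSeq promoter windows (build GRCm38.p6, 250 bases before to 50 after each start) were searched on both strands for the E box CACGTG, the D boxes TTATGTAA and TTATGCAA, and the ROR core AGGTCA. The E box was in both Tef windows, which belong to separate annotated starts, and the ROR core lay on the opposite strand of the Nfil3 window. The 3 stretches below run 5′ to 3′ on the strand of the gene, with the motif in capitals.
Tef, first start, E box, chr15:81802496-81802601 (+): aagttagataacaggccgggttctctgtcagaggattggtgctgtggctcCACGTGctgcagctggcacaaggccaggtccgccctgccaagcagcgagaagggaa
Tef, second start, E box, chr15:81811226-81811331 (+): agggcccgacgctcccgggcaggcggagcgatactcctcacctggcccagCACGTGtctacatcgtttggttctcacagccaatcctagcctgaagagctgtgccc
Nfil3, ROR core read on the other strand, chr13:52981040-52981101 (-): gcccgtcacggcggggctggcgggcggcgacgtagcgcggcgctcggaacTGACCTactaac
The Tef motifs began at -127 and -138 from their starts, and the Nfil3 motif at -12. CACGTG was present in 7.15% of the 32851 promoter windows of all genes and AGGTCA in 16.3%, so either match is a description and does not show a site in use. The windows of Dbp and Hlf held none of these letters, and no member's window held a D box, which 1.66% of all windows did.

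Liver identity was plain in every array. The summed intensity of 6 hepatocyte markers was 39085 to 43882 in TB livers and 38475 to 44195 in WT livers. The sums of 3 lung epithelial markers were 72.8 to 105 in TB livers and 73.2 to 123 in WT livers, and those of 4 neutrophil markers were 106 to 246 in TB livers and 121 to 250.1 in WT livers. WT ZT 12 replicate 3 stood apart: its 6 skeletal muscle markers summed to 259784, against 259 to 410.3 in the TB arrays and at most 599 in the other WT arrays. Values without this array are given beside several results of the members, among them every call of a member that changed. The arrays also fell into sets of 12 and 24 along the first component of their deviations from group means, which held 28.6% of that variance. The labels name no batch. Each group had 1 array in the smaller set and 2 in the larger, and at each ZT these smaller-set arrays carried matching replicate numbers in TB and WT livers. WT ZT 12 replicate 3 belonged to the smaller set.

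Dbp, named for its binding to the D site of the albumin promoter, had the widest daily range of the members. At ZT 0 its intensity was 59.8, 30.6 and 35.4 in TB livers, against 27.0, 36.2 and 47.8 in WT livers. At ZT 4 it was 174, 199 and 312 in TB livers, against 135, 171 and 198 in WT livers. The low morning values overlapped between genotypes at each time, and all 3 arrays of each genotype at ZT 4 lay above all 3 at ZT 0. At ZT 8 Dbp read 898, 966 and 1305 in TB livers, against 1336, 1032 and 1610.2 in WT livers. At ZT 12 it read 1255, 942 and 677 in TB livers, against 782, 1322 and 773 in WT livers. The highest group was thus ZT 8 in either genotype, with single arrays of ZT 12 reaching the same range. At ZT 16 the values were 232, 206 and 229 in TB livers, against 299.6, 333 and 211 in WT livers. At ZT 20 they were 73.0, 53.2 and 68.9 in TB livers, against 63.9, 92.5 and 70.4 in WT livers. Dbp had left its peak by ZT 16 and lay below all its ZT 4 values by ZT 20, again with overlapping genotypes. The ZT 20 arrays lay above those of ZT 0 in WT livers and overlapped them in TB livers.

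Tef, thyrotroph embryonic factor, followed Dbp with a smaller range. Its intensity at ZT 0 was 109, 46.4 and 65.0 in TB livers, against 39.3, 63.1 and 48.0 in WT livers. At ZT 4 it was 69.4, 101 and 128 in TB livers, against 72.6, 103 and 85.5 in WT livers. Replicate 1 of the TB arrays at ZT 0 was higher than any WT array of ZT 0 or ZT 4. At ZT 8 Tef read 274, 253 and 292 in TB livers, against 298, 208 and 328 in WT livers. At ZT 12 it read 304, 253 and 221 in TB livers, against 267, 318 and 279 in WT livers. Both genotypes held Tef high at these times, with no separation between them. The values at ZT 16 were 146, 163 and 182 in TB livers, against 152, 228 and 171 in WT livers. The values at ZT 20 were 103, 91.7 and 92.9 in TB livers, against 107, 94.4 and 118 in WT livers. Genotypes overlapped at all 6 times with this probe set.

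Hlf, hepatic leukemia factor, was the flattest member. At ZT 0 its intensity was 222, 241 and 208 in TB livers, against 218, 204 and 191 in WT livers. At ZT 4 it was 226, 232 and 216 in TB livers, against 190.4, 202 and 215 in WT livers. All 3 TB arrays at ZT 4 lay just above all 3 WT arrays, the nearest of them 216 in TB livers and 215 in WT livers. At ZT 8 Hlf read 349.5, 239 and 263 in TB livers, against 305, 256 and 347 in WT livers. At ZT 12 it read 244, 378 and 313 in TB livers, against 248, 357 and 272 in WT livers. These times had the widest spread within groups and no separation. At ZT 16 Hlf was 247, 256 and 262 in TB livers, against 338, 372 and 365 in WT livers, so that the genotypes did not overlap and every TB array was the lower. At ZT 20 it was 301, 228 and 232 in TB livers, against 288, 259.8 and 252 in WT livers.

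Nfil3, the repressor, ran opposite to Dbp and Tef. Its intensity at ZT 0 was 362, 312 and 374 in TB livers, against 359, 355 and 317 in WT livers. At ZT 4 it was 242, 193 and 198 in TB livers, against 245, 219 and 198 in WT livers. The morning maximum had the same range in both genotypes. At ZT 8 Nfil3 read 134, 99.0 and 105 in TB livers, against 78.2, 70.6 and 80.8 in WT livers. The genotypes did not overlap at this trough, where all 3 WT arrays were the lower. At ZT 12 the values were 129, 112 and 145 in TB livers, against 205, 116 and 99.8 in WT livers. At ZT 16 they were 226, 226 and 247 in TB livers, against 172, 186 and 245 in WT livers. At ZT 20 they were 248, 345 and 236 in TB livers, against 233, 224 and 235 in WT livers, and the lowest TB array lay just above the highest WT array.

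**Figure D1:**
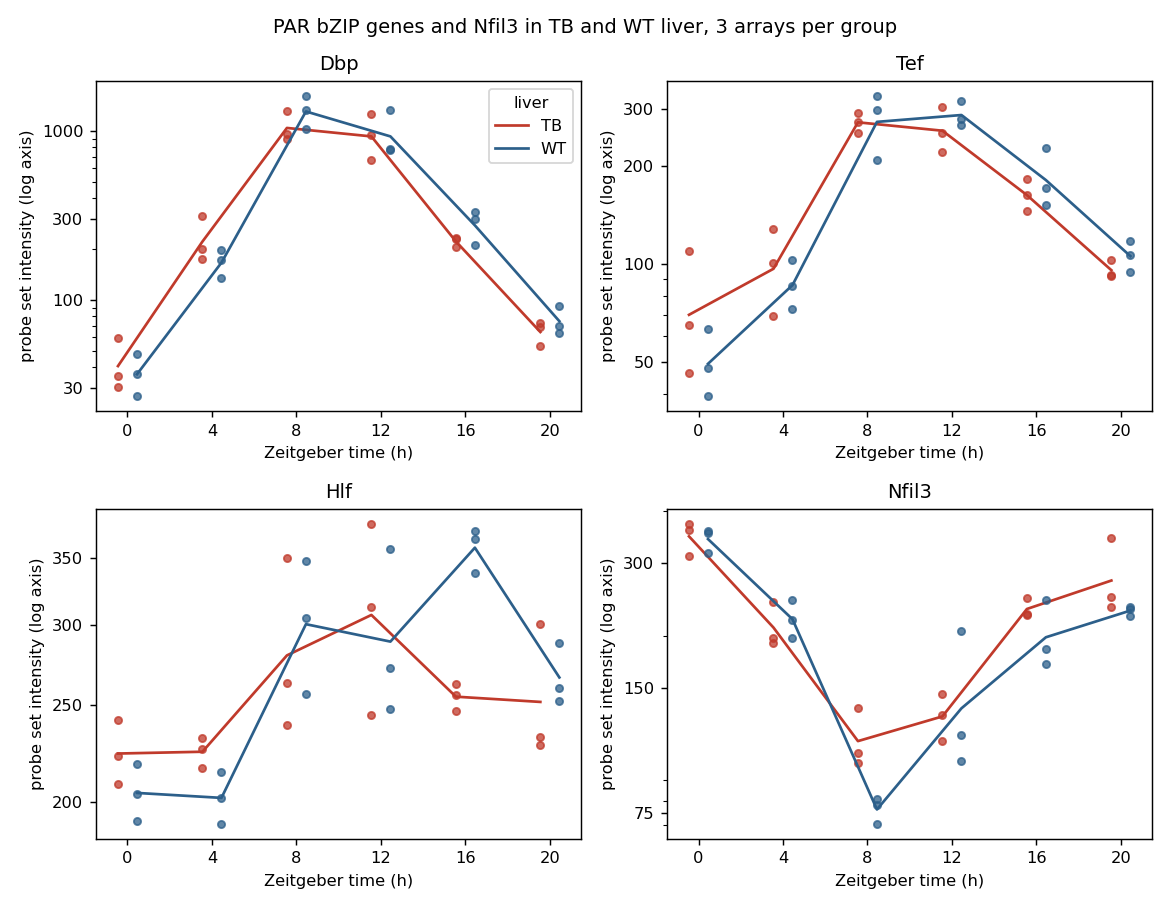
Probe set intensity (log axis) of Dbp, Tef, Hlf and Nfil3 against Zeitgeber time in h, with each array as a point and a line through the mean of log2(intensity + 16) of each group, taken back to intensity, TB left of WT at each time. Dbp spans the widest range, with mean intensities of the groups between 41.9 and 1056 in TB livers and between 37.0 and 1326 in WT livers, and Nfil3 is lowest at ZT 8, where its genotypes do not overlap.

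The order of the group means gives the depth of each cycle. Dbp was 25.2 times higher at its highest than at its lowest time in TB livers (mean intensity 1056 ± 218 at ZT 8 and 41.9 ± 15.7 at ZT 0; SD, n = 3 each). In WT livers this ratio was 35.9 (1326 ± 289 at ZT 8 and 37.0 ± 10.4 at ZT 0). For Tef the ratio was 3.71 in TB livers, between ZT 8 (273 ± 19.7) and ZT 0 (73.6 ± 32.4), and 5.74 in WT livers, between ZT 12 (288 ± 26.6) and ZT 0 (50.1 ± 12.0). Hlf ranged over only 1.39 times in TB livers, between ZT 12 (312 ± 67.2) and ZT 0 (224 ± 16.4), and 1.77 times in WT livers, between ZT 16 (359 ± 17.8) and ZT 4 (202 ± 12.1). Nfil3 was highest at ZT 0 and lowest at ZT 8 in either genotype, 349 ± 32.4 and 113 ± 19.0 in TB livers (3.10 times) and 344 ± 23.1 and 76.5 ± 5.30 in WT livers (4.49 times). The peak-to-trough ratio was smaller in TB livers for all 4 members. These ratios pick the extreme groups of each genotype and carry no test. The intervals of the amplitude difference and the test of differential rhythm are given below.

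Most steps in this order were no wider than the spread (SD) of the 3 arrays within a neighbouring group. Among the 12 group means of Dbp, placed from high to low, 7 of the 11 neighbouring pairs lay within 1 SD of each other. Arrays separated at only 2 of these steps, between TB ZT 12 and WT ZT 16 and between WT ZT 4 and WT ZT 20. Tef separated at 1 step, between TB ZT 16 and WT ZT 20, with 9 of 11 pairs within 1 SD. Nfil3 separated at 1 step, between TB ZT 8 and WT ZT 8, its lowest groups, with 8 of 11 pairs within 1 SD. Hlf separated at none, and 10 of its 11 pairs lay within 1 SD.

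A 24 h cosine was fitted to log2(intensity + 16) with limma, with amplitude as the height of the curve above its mean. At an adjusted p under 0.05 over all genes, a rhythm was called for 3 of the 4 members in TB livers and for all 4 in WT livers, against 4.95% of all genes in TB livers and 6.45% in WT livers. Dbp, Tef and Nfil3 were rhythmic in both, as were 2.68% of all genes. These counts were the same without WT ZT 12 replicate 3. In bulk liver RNA, fewer cells of a type and less RNA per cell cannot be told apart.

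Dbp had an amplitude of 2.25 ± 0.121 (SE) log2 in TB livers, peaking at ZT 10.1 ± 0.206 h, and of 2.34 ± 0.121 in WT livers, peaking at ZT 10.5 ± 0.198 h. By limma's F test the adjusted p was 6.90e-15 in TB livers and 3.84e-15 in WT livers, and Dbp had the smallest p of all 22180 genes in WT livers. Its amplitude ranked 3 among all genes in either genotype. Tef had an amplitude of 0.92 ± 0.0954 log2 in TB livers with its peak at ZT 11.1 ± 0.397 h (limma adjusted p = 1.51e-07), and of 1.11 ± 0.0954 in WT livers with its peak at ZT 11.7 ± 0.329 h (limma adjusted p = 1.67e-09). Tef followed Dbp by about an hour in each genotype by these fitted peaks, an interval that was not tested.

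The fitted curve of Nfil3 peaked late in the dark phase, at ZT 21.9 ± 0.520 h with an amplitude of 0.73 ± 0.0987 log2 in TB livers (limma adjusted p = 2.44e-05). In WT livers it peaked at ZT 22.1 ± 0.488 h with an amplitude of 0.77 ± 0.0987 (limma adjusted p = 6.52e-06). The highest group mean of Nfil3 was nevertheless at ZT 0 in either genotype, after the fitted peak. Hlf had the weakest rhythm. Its amplitude was 0.20 ± 0.0616 log2 in TB livers, where the rhythm was not called (limma adjusted p = 0.131), and 0.36 ± 0.0616 in WT livers, where it was (limma adjusted p = 0.000499). The fitted Hlf peak was at ZT 12.1 ± 1.20 h in TB livers and at ZT 14.0 ± 0.653 h in WT livers. Without WT ZT 12 replicate 3 the Hlf amplitude in WT livers was 0.39 (limma adjusted p = 0.000225).

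**Figure D2:**
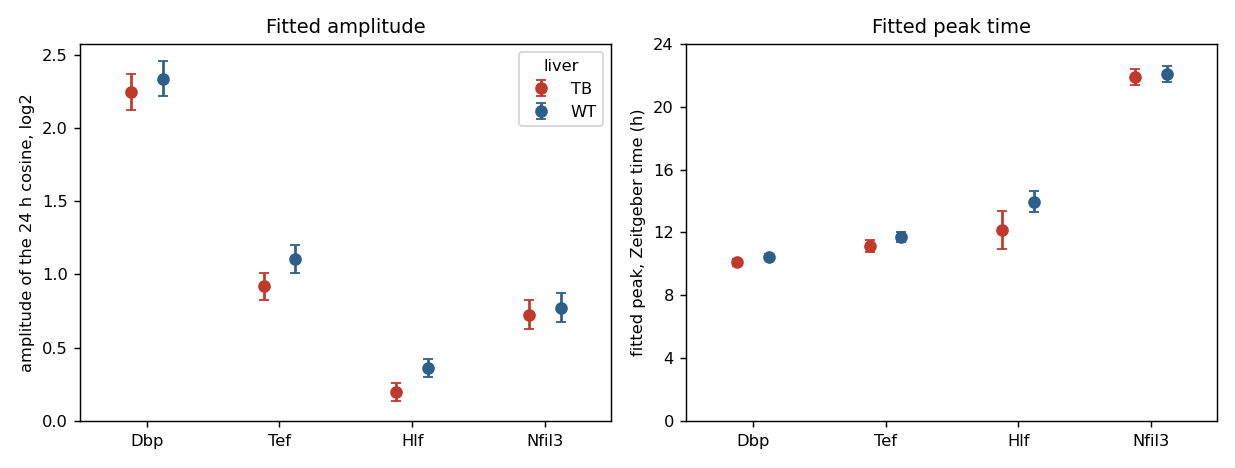
Fitted amplitude in log2 and fitted peak in Zeitgeber time (h) of the 4 members, TB before WT, with points for estimates and bars for standard errors. The amplitudes fall in the order Dbp, Tef, Nfil3 and Hlf in both genotypes, and the peak of Nfil3 lies near ZT 22 while those of Dbp, Tef and Hlf lie between ZT 10.1 and ZT 14.0.

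The test that compares the rhythms of the genotypes called none of the members, nor any other gene (0% of 22180 genes; 4.8% had an unadjusted p under 0.05). The limma adjusted p for differential rhythm was 0.986 for Dbp, 0.985 for Tef and Hlf, and 0.999 for Nfil3. All 4 fitted amplitudes were lower in TB livers, against 49.6% of all genes and 57.2% of the genes rhythmic in both genotypes. The intervals are the fuller answer. The TB minus WT amplitude was -0.091 log2 for Dbp (95% interval -0.44 to 0.26) and -0.19 for Tef (-0.46 to 0.085). It was -0.16 for Hlf (-0.34 to 0.013) and -0.047 for Nfil3 (-0.33 to 0.24). All 4 intervals include 0, and their lower bounds lie between -0.46 and -0.33 log2. Without WT ZT 12 replicate 3 the difference was -0.20 for Hlf (-0.37 to -0.020), an interval that no longer includes 0, with an unadjusted limma p of 0.0393 and an adjusted p of 0.844 for differential rhythm. It was then -0.16 for Dbp (-0.50 to 0.19), -0.21 for Tef (-0.50 to 0.070) and -0.035 for Nfil3 (-0.33 to 0.26), and no member was called.

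The fitted peaks of all 4 members, with the brighter probe set for Tef, were also earlier in TB livers. The TB minus WT difference was -0.358 h for Dbp (95% interval -0.937 to 0.221) and -0.551 h for Tef (-1.60 to 0.496). It was -1.82 h for Hlf (-4.59 to 0.952), whose peak was poorly fixed, and -0.194 h for Nfil3 (-1.64 to 1.25). An earlier fitted peak in TB livers was the more common direction among all genes rhythmic in both genotypes, at 70.2% of 594, with a median shift of -0.569 h. The shifts of Dbp, Tef and Nfil3 were no larger than that median.

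Averaged over the 6 times, no member passed the threshold for a difference between genotypes. The TB minus WT difference was -0.049 ± 0.0996 (SE) log2 for Dbp (limma adjusted p = 0.901) and 0.019 ± 0.0826 for Tef (limma adjusted p = 0.958). It was -0.049 ± 0.0580 for Hlf (limma adjusted p = 0.802). Nfil3 had the largest value, 0.13 ± 0.0691 higher in TB livers (95% interval -0.0071 to 0.28; limma adjusted p = 0.483). Among all genes 0.176% were called. The Nfil3 value differed between the array sets, at 0.34 within the smaller and 0.030 within the larger, and was 0.10 (limma adjusted p = 0.531) without WT ZT 12 replicate 3. The smaller set held a single array of each group, among them WT ZT 12 replicate 3, and the difference between the sets was not tested.

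Time by time, no member was called at any ZT after adjustment over all genes, where the share of all genes called was 0% at each ZT other than ZT 8, with 0.00451%. These shares moved with single arrays: without WT ZT 12 replicate 1, 20 genes were called at ZT 12, and without TB ZT 8 replicate 2, 7 genes at ZT 8. Arrays of the genotypes did not overlap in 4 of the 24 comparisons of a member at a time, which were Hlf at ZT 4 and ZT 16 and Nfil3 at ZT 8 and ZT 20. The share of all genes without overlap was 6.47% at ZT 0, 9.38% at ZT 4, 9.39% at ZT 8, 11% at ZT 12, 13.3% at ZT 16 and 6.57% at ZT 20. The TB minus WT difference of Hlf at ZT 16 was -0.47 ± 0.142 log2 (95% interval -0.76 to -0.18), with an unadjusted limma p of 0.00264 and an adjusted p of 0.854. At this time 5.38% of all genes had an unadjusted p under 0.05, and Hlf had rank 58 by p among them. The difference was -0.43 between the single arrays of each genotype in the smaller set and -0.48 within the larger set. Hlf at ZT 4 was 0.14 ± 0.142 higher in TB livers (limma adjusted p = 1.00).

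Nfil3 at ZT 8 was 0.47 ± 0.169 log2 higher in TB livers (95% interval 0.12 to 0.81), with an unadjusted limma p of 0.00997 and an adjusted p of 0.793. At this time 5.3% of all genes had an unadjusted p under 0.05. This value was 0.41 between the single arrays of each genotype in the smaller set and 0.50 within the larger set. At the same ZT 8 the fitted difference of Dbp was -0.32 ± 0.244 (limma adjusted p = 1.00). Nfil3 at ZT 20 was 0.23 ± 0.169 higher in TB livers (limma adjusted p = 1), with 0.59 within the smaller set of arrays and 0.046 within the larger. The smaller set held a single array of each genotype at that time, and its TB array was the highest of the group, at 345. The Nfil3 difference at ZT 12 was -0.058 ± 0.169 with all arrays and -0.24 without WT ZT 12 replicate 3. It was -0.33 within the larger set. The 0.48 within the smaller set compares a single TB array with WT ZT 12 replicate 3 itself. For Tef the largest value was at ZT 0, 0.39 ± 0.202 higher in TB livers (limma adjusted p = 1.00), and for Dbp at ZT 4, 0.38 ± 0.244 higher in TB livers (limma adjusted p = 1.00). The Dbp difference at ZT 12 was near 0 with all arrays and -0.13 without WT ZT 12 replicate 3 (limma adjusted p = 0.912).

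Dependence of the genotype difference on time was tested with an F test on the 6 differences, which called no gene (0% of 22180; 2.48% had an unadjusted p under 0.05). Hlf had the smallest p of the members, 0.0473 unadjusted and 1 adjusted by limma. The unadjusted limma p was 0.322 for Dbp, 0.370 for Tef and 0.224 for Nfil3, each with an adjusted p of 1. Without WT ZT 12 replicate 3 the unadjusted limma p was 0.0590 for Hlf, 0.311 for Dbp, 0.382 for Tef and 0.0652 for Nfil3, and no member was called.

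**Figure D3:**
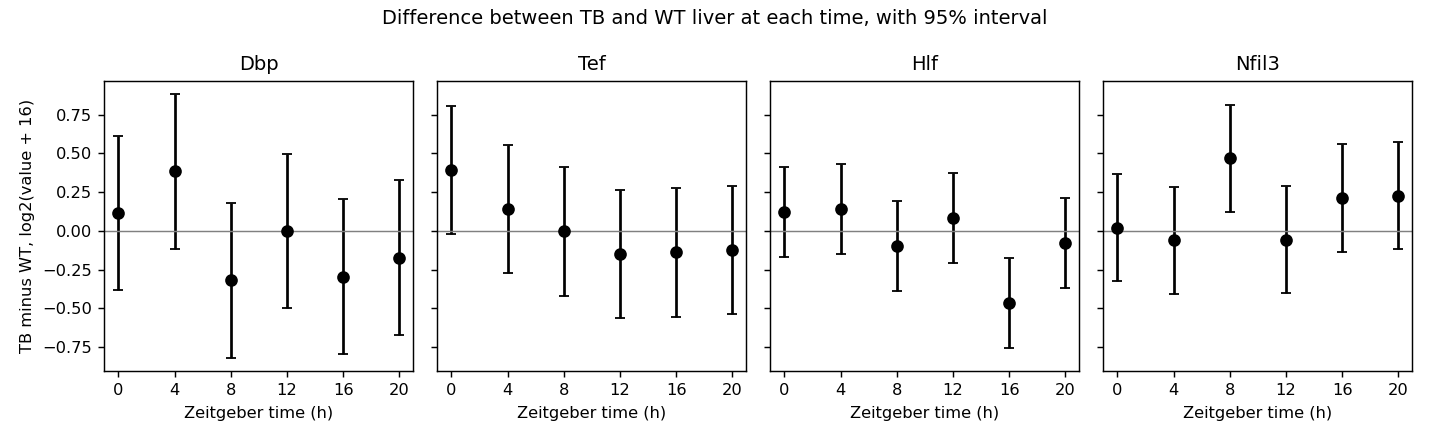
TB minus WT difference in log2(intensity + 16) of the 4 members at each Zeitgeber time (h), with points for the fitted difference and bars for its 95% interval. The bars of Hlf at ZT 16 (-0.47) and of Nfil3 at ZT 8 (0.47) are the only ones of the 24 that do not include 0, and neither passed the adjusted threshold.

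The second Tef probe set read far lower than the first, between 17.6 and 43.8 intensity units in all arrays. Its highest value came from WT ZT 12 replicate 3. Over the 36 arrays, where both sets share groups and labelling, it had r = 0.506 with the first set. Fitted in the table of all probe sets, its amplitude was 0.12 log2 in TB livers (limma adjusted p = 0.466) and 0.20 in WT livers (limma adjusted p = 0.0439). Without WT ZT 12 replicate 3 the WT amplitude was 0.17 and its call was lost (limma adjusted p = 0.140). Unlike the brighter set it had the later fitted peak in TB livers, at ZT 14.2 ± 1.61 h in TB livers and 10.5 ± 0.953 h in WT livers, a difference of 3.75 h (95% interval -0.044 to 7.55). Its genotypes did not overlap at ZT 0 and ZT 20, where TB livers had the higher values (0.23 log2 at either time, limma adjusted p = 1.00 at ZT 0 and 1 at ZT 20). The called Tef rhythm therefore rests on the brighter probe set in TB livers, and in WT livers as well once that array is left out.

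Dbp and Tef followed each other closely and ran opposite to Nfil3, while Hlf was more loosely tied to all 3. Over the 12 group means, which share arrays and times, the correlation of Dbp with Tef was r = 0.944 and that of Dbp with Nfil3 was r = -0.959. Tef with Nfil3 gave r = -0.902, Tef with Hlf r = 0.804, Dbp with Hlf r = 0.641 and Hlf with Nfil3 r = -0.630. Within TB livers, over 6 group means, Dbp had r = 0.947 with Tef and -0.983 with Nfil3; within WT livers it had 0.947 and -0.950. Hlf had r = 0.797 with Dbp, 0.908 with Tef and -0.808 with Nfil3 within TB livers, and 0.596 with Dbp, 0.787 with Tef and -0.559 with Nfil3 within WT livers. Deviations of the 36 arrays from their group means still tied Dbp to Tef, at r = 0.685, while Dbp with Nfil3 was at -0.383, and at -0.537 without WT ZT 12 replicate 3. The deviations of Hlf had r = 0.082 with Dbp, 0.126 with Tef and -0.12 with Nfil3, and those of Tef with Nfil3 had r = -0.056. Within a group, arrays with more Dbp tended to hold more Tef as well. Deviations of members on an array share that array and its labelling, and the values are a description.

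By the same measure over the 12 group means, the genes most like each member were taken from 392 well measured genes with a wide range. Those nearest Dbp were Rgs16, a regulator of G protein signalling (r = 0.967), Npc1, the lysosomal cholesterol exporter (0.959), and Cpt1a, the carnitine palmitoyltransferase of mitochondrial fatty acid import (0.957). Gpcpd1, a glycerophosphocholine phosphodiesterase (0.956), and Lpin2, a phosphatidate phosphatase (0.946), came next. Most opposed to Dbp were Chka, choline kinase alpha (-0.983), Arntl, which encodes BMAL1 (-0.967), and Pnrc1, a nuclear receptor coactivator (-0.964). Rgs16 was the sole gene among these neighbours with an amplitude as wide as that of Dbp, at 2.34 log2 in TB livers and 2.42 in WT livers.

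Tef was matched most closely by Upp2, a uridine phosphorylase (r = 0.982), Lpin2 (0.958) and Ppara, the fatty acid sensing nuclear receptor (0.952). Gys2, the liver glycogen synthase (0.945), and Dbp itself (0.944) followed. Opposed to Tef were Pid1 (-0.971), Rfxank, a subunit of the RFX complex (-0.970), and Clpx, the ATPase of a mitochondrial protease (-0.961). Nfil3 ran with Net1, a guanine nucleotide exchange factor for RhoA (0.950), Nedd4l, a ubiquitin ligase (0.947), Pnrc1 (0.945), Arntl (0.937) and Pid1 (0.934). Opposed to Nfil3 were Npc1 (-0.963), Dbp (-0.959) and Fgfrl1, a receptor of the FGF receptor family that lacks a kinase (-0.931).

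Hlf, whose own range was below the limit for these 392 genes, had looser neighbours. They were Ak4, a mitochondrial adenylate kinase (r = 0.911), St3gal5, the GM3 synthase (0.884), Bnip3, a mitophagy receptor (0.883), Gys2 (0.882) and Nmrk1, a nicotinamide riboside kinase (0.865). The opposed genes were Mug-ps1, a murinoglobulin pseudogene (-0.918), Efna1, the ligand ephrin A1 (-0.885), and Hmgcs1, the cytosolic HMG-CoA synthase (-0.871). None of the neighbours of the 4 members was called for a genotype difference; their adjusted p by limma was at least 0.158. Leaving out WT ZT 12 replicate 3 moved these correlations by at most 0.0032 for Dbp, 0.0098 for Tef, 0.017 for Nfil3 and 0.077 for Hlf.

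Upstream of the members, all 3 E-box activators were rhythmic in both genotypes. The amplitude of Arntl was 1.93 ± 0.157 log2 in TB livers and 1.83 ± 0.157 in WT livers, with its peak at ZT 22.1 in TB livers and 22.4 in WT livers, opposite to Dbp. Npas2, the partner that can replace CLOCK, had amplitudes of 1.90 ± 0.153 in TB livers and 2.07 ± 0.153 in WT livers. Clock had 0.69 ± 0.0663 in TB livers and 0.57 ± 0.0663 in WT livers.

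The E-box repressors, of which 7 were measured, were rhythmic in 6 cases in TB livers and in 7 in WT livers. Per3 had an amplitude of 1.19 ± 0.108 log2 in TB livers and 1.43 ± 0.108 in WT livers, and peaked at ZT 11.8 in TB livers and 12.0 in WT livers. Cry1, which peaks late in the night, had 1.06 ± 0.0758 in TB livers and 1.05 ± 0.0758 in WT livers, with its peak at ZT 19.3 in TB livers and 19.5 in WT livers. Ciart, a repressor also called Chrono, had 1.32 ± 0.166 in TB livers and 1.48 ± 0.166 in WT livers.

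Among the ROR element factors that act on Nfil3, 2 of 3 measured were rhythmic in each genotype. Nr1d1, which encodes REV-ERB alpha, had an amplitude of 2.28 ± 0.173 log2 in TB livers and 2.50 ± 0.173 in WT livers. It peaked at ZT 6.92 ± 0.290 h in TB livers and 7.76 ± 0.265 h in WT livers. Nr1d2, which encodes REV-ERB beta, had an amplitude of 1.47 ± 0.141 in TB livers and 1.64 ± 0.141 in WT livers. Rora, the activator of the element, was at 0.11 ± 0.0512 in TB livers and 0.085 ± 0.0512 in WT livers and was not called in either. Of the 6 measured clock genes that carry D boxes, 5 were rhythmic in each genotype, namely Per1, Per3, Cry1, Nr1d1 and Nr1d2, which also belong to the lists above, and Rora was not.

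**Figure D4:**
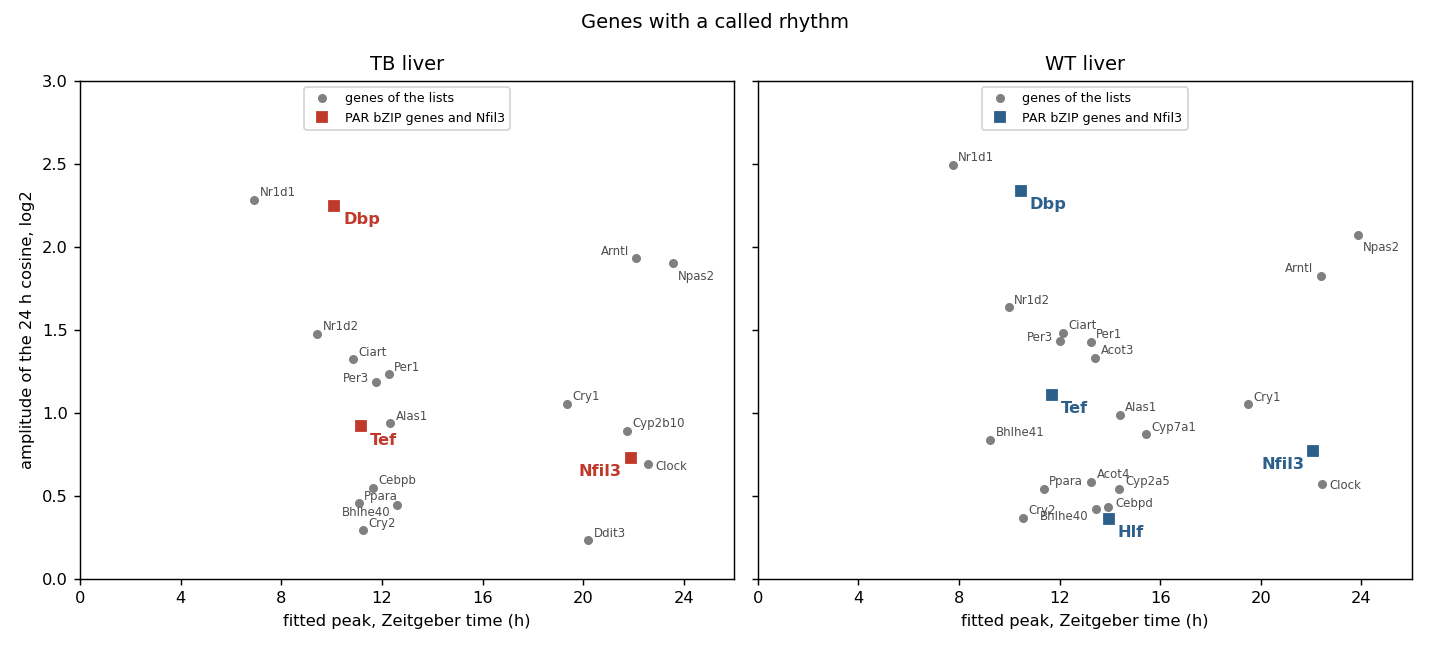
Fitted peak in Zeitgeber time (h) against fitted amplitude in log2 for the genes with a called rhythm, TB left and WT right, with squares for the PAR bZIP genes and Nfil3 and grey points for the genes of the upstream and target lists. Dbp lies between Nr1d1 and Per3 in time, at ZT 10.1 in TB livers and 10.5 in WT livers, Nfil3 lies beside Clock and shares its peak time, though not its amplitude, with Arntl, and Hlf appears only among WT livers.

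Downstream, 2 of the 6 measured PAR bZIP targets in detoxification and bile acid synthesis were rhythmic in TB livers and 3 in WT livers. Cyp7a1, the rate-limiting enzyme of bile acid synthesis, had an amplitude of 0.52 ± 0.146 log2 in TB livers (limma adjusted p = 0.0704) and of 0.87 ± 0.146 in WT livers (limma adjusted p = 0.000387). Alas1, the first enzyme of heme synthesis, was rhythmic in both, with 0.94 ± 0.181 in TB livers (limma adjusted p = 0.00283) and 0.99 ± 0.181 in WT livers (limma adjusted p = 0.00127). Its fitted peak was at ZT 12.3 ± 0.738 h in TB livers and 14.4 ± 0.701 h in WT livers. Cyp2a5, a coumarin hydroxylase, had 0.35 ± 0.136 in TB livers (limma adjusted p = 0.296) and 0.54 ± 0.136 in WT livers (limma adjusted p = 0.0292). The other rhythm called in TB livers was that of Cyp2b10, a phenobarbital-inducible P450 named here after its values were seen, with 0.89 ± 0.236 in TB livers (limma adjusted p = 0.0492) and 0.23 ± 0.236 in WT livers (limma adjusted p = 0.893).

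Of 7 measured lipid genes linked to PAR bZIP factors and PPAR alpha, 1 was rhythmic in TB livers and 3 in WT livers. Ppara was rhythmic in both, with amplitudes of 0.46 ± 0.0777 log2 in TB livers and 0.54 ± 0.0777 in WT livers, and its peak at ZT 11.1 in TB livers and 11.4 in WT livers matched that of Tef within their errors. Acot3 and Acot4, peroxisomal acyl-CoA thioesterases, were called in WT livers alone. Acot3 had 0.69 ± 0.279 in TB livers (limma adjusted p = 0.327) and 1.33 ± 0.279 in WT livers (limma adjusted p = 0.00560), and Acot4 had 0.20 ± 0.109 in TB livers (limma adjusted p = 0.572) and 0.58 ± 0.109 in WT livers (limma adjusted p = 0.00167). The tests of differential rhythm gave adjusted p = 0.985 by limma for Cyp7a1, Alas1, Cyp2a5, Cyp2b10, Acot3 and Acot4 alike, so a call in a single genotype is not a shown difference. Apart from Cyp2b10, the genes named in these lists were picked for the smallest p for rhythm in WT livers, which favours calls in WT livers.

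In the C/EBP family, a family of bZIP factors that includes the liver regulator Cebpa, 2 of 6 were rhythmic in TB livers and 1 in WT livers. Cebpd had an amplitude of 0.34 ± 0.102 log2 in TB livers (limma adjusted p = 0.107) and 0.44 ± 0.102 in WT livers (limma adjusted p = 0.0167). Cebpb had 0.55 ± 0.127 in TB livers (limma adjusted p = 0.0182) and 0.34 ± 0.127 in WT livers (limma adjusted p = 0.242). Ddit3, a stress-induced member named here after its values were seen, had 0.23 ± 0.0603 in TB livers (limma adjusted p = 0.0461) and 0.11 ± 0.0603 in WT livers (limma adjusted p = 0.609). Cebpa, with 0.16 ± 0.0664 in TB livers and 0.15 ± 0.0664 in WT livers, was called in neither.

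Over all 7 lists, 32 of 36 genes were measured, and none was called for a genotype difference or for differential rhythm. The median genotype difference of the lists lay between -0.055 and 0.072 log2, against 0.0073 over all genes. In all, 16 of the 32 were rhythmic in TB livers and 19 in WT livers, and 13 in both, against 4.95%, 6.45% and 2.68% of all genes. Of those 13, 11 had the earlier fitted peak and 9 the lower fitted amplitude in TB livers, with a median peak difference of -0.304 h. Among the 594 genes rhythmic in both genotypes 70.2% had the earlier peak and 57.2% the lower amplitude in TB livers, with a median peak difference of -0.569 h. The list genes and the 594 genes rhythmic in both genotypes overlap, and these counts carry no test. The numbers of rhythmic genes in each list, and of those rhythmic in both genotypes over all lists, were the same without WT ZT 12 replicate 3.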

How the data were processed

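RNA of 36 mouse liver samples was measured on 1-colour Affymetrix arrays. The values the authors deposited are linear intensities of 41345 probe sets on each array, made with Affymetrix Expression Console 1.1.1 and PLIER 2.0 per the submitters' processing notes. How these tools were set, and whether arrays were normalized, the labels do not state. The medians of the arrays ran from 36.3 to 43.3, 23.0% of values were under 16, and no pair of arrays was identical. Precision is limited by the 3 arrays per group.

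Symbols came from the platform annotation: 23521 had 1 symbol, 1814 had several, which were not used, and 16010 had none. RefSeq matched 99.2% of those with 1 symbol. Each gene took its probe set with the highest mean, without a filter. From the deposited intensities, log2(intensity + 16) was computed, so that differences understate the change of low genes.

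Groups came from the sample titles. limma 3.58.1 in R 4.3.3 (lmFit, eBayes) fitted all 36 arrays with 12 group means, or with a mean, cosine and sine of 24 h per genotype. Tests were two-sided or F tests, with Benjamini-Hochberg adjustment over 22180 genes, a threshold of 0.05 and delta-method errors for amplitudes and peaks. The fits were tested on simulated data. Neighbouring group means were set against the larger of their SDs on the log2 scale. Alternatives were each array left out, a 6-level time factor, subsets of arrays, Xist as a covariate, array weights, replicate numbers or array sets as a block, a variance trend, other probe set choices, removal of the lowest genes, quantile normalization, median centring and a pseudocount of 1. Fits without WT ZT 12 replicate 3 for the second Tef probe set, the lists, the correlations and the comparison of rhythms were added after the data were seen.

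The members and lists were chosen with earlier results of these data known. Named besides the members were, in each list, the 3 measured genes with the smallest p for rhythm in WT livers and any called for genotype or differential rhythm. The pattern neighbours were the 5 highest and 3 lowest correlations among named genes with a mean of at least 7 and a range of at least 1 log2. Listed genes without a value are not analysed here.

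Same-numbered TB and WT arrays of a time were checked for shared deviations. Of 18 such pairs, 14 had a correlation above 0.1 and the others did not (median 0.164, against -0.117 for pairs with different numbers). Since the labels state no pairing and not every pair passed 0.1, the fits have no block. No coordinates were taken from the deposited values, which name no build.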

Additional observations from a re-analysis of the deposited data

Results flagged for a closer look

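The arrays of Hlf separated by genotype at ZT 4 and at ZT 16, in opposite directions. At ZT 4 every TB array lay above every WT array, by little (216 in TB livers and 215 in WT livers for the nearest arrays), and at ZT 16 every TB array lay below every WT array. Arrays of the genotypes did not overlap for 9.38% of all genes at ZT 4 and for 13.3% at ZT 16. The TB minus WT difference at ZT 4 minus that at ZT 16 was 0.61 log2. Over all 6 times, limma's F test of a dependence on time gave Hlf an unadjusted p of 0.0473 and an adjusted p of 1. Without WT ZT 12 replicate 3 the unadjusted p of this test was 0.0590. The difference did not pass the threshold, and the contrast of these times alone was not tested.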

How the results depend on the processing

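Over 16 other settings, 553 of 571 values of the members kept their direction and their side of the threshold, as did 1560 of 1584 values with each of the 36 arrays left out in turn. Many of these values could not reverse, so the counts overstate how stable the differences are. F values and amplitudes are never negative, and an array left out moves single-time differences at its own ZT alone. Several other settings change only the error of a difference. The 1 lost call was the Tef rhythm in TB livers with the second probe set (amplitude 0.12, limma adjusted p = 0.466). All reversals were of genotype differences that were never called, with an adjusted p of at least 0.792 and a size of at most 0.25 log2. With Xist as a covariate the values were 0.048 for Dbp and 0.0093 for Hlf averaged over times, 0.17 for Dbp at ZT 12, and 0.12, 0.018 and 0.028 for Tef at ZT 8, 12 and 16. Quantile normalization gave 0.052 for Dbp at ZT 12 and 0.063 for Tef at ZT 8. Median centring gave -0.011 for Tef averaged over times and -0.0012 for Nfil3 at ZT 0, and array weights gave -0.032 for Nfil3 at ZT 0. The second Tef probe set gave -0.013, 0.064, 0.14 and 0.23 at ZT 4, 12, 16 and 20, and the mean of the Tef probe sets gave 0.00015 and 0.054 at ZT 16 and 20. Without WT ZT 12 replicate 3 the second Tef probe set gave 0.22 at ZT 12. With an array left out, the ranges that crossed 0 were -0.097 to 0.26 for Dbp at ZT 0 and -0.21 to 0.25 at ZT 12. For Tef they were -0.026 to 0.058 averaged over times, -0.033 to 0.34 at ZT 4, -0.19 to 0.12 at ZT 8 and -0.26 to 0.013 at ZT 16. For Hlf they were -0.25 to 0.011 at ZT 8 and -0.060 to 0.24 at ZT 12, and for Nfil3 -0.034 to 0.095 at ZT 0, -0.16 to 0.012 at ZT 4 and -0.24 to 0.22 at ZT 12. The cause of these reversals was not tested. The Hlf rhythm in TB livers was called in no setting, with an adjusted p between 0.0545 and 0.415 over the other settings. With the replicate number as a block, the genotype differences kept their values, with limma adjusted p of 0.907 for Dbp, 0.959 for Tef, 0.814 for Hlf and 0.479 for Nfil3, and no call of a member changed. As a block within each ZT the adjusted p was 0.858, 0.944, 0.658 and 0.379. Of the 36 arrays, 25 correlated best with an array of their own number, a hint from the data and not from the design. Among all genes, 39 were called for a genotype difference, against 15 with a pseudocount of 1, 14 with Xist as a covariate, 59 with the block within ZT, 151 with the array set as a block and 627 with array weights, and 11 to 109 with an array left out. At ZT 8, 1 gene was called, against 62 with array weights, and at ZT 0, 0 genes, against 5 without TB ZT 0 replicate 2. Rhythmic genes numbered 1099 in TB livers and 1431 in WT livers, against 482 in TB livers and 596 in WT livers with a 6-level time factor, and 1660 and 1994 in TB livers with the array set as a block and with array weights. With 3 arrays per group, differences at single times had standard errors between 0.142 log2 for Hlf and 0.244 for Dbp.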
